A study of Mus musculus with 22 samples.

Results

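The cytoplasmic ribosomal protein genes were examined across mouse embryonic stem cells that made DUX or one of its derivatives. A gene was taken when its GENCODE M21 entry was protein-coding and its symbol began with Rpl or Rps and a digit, or was Rplp0, Rplp1, Rplp2 or Rpsa. Rps6k kinases and symbols marked as pseudogenes were left out. This gave 86 of the 55487 genes listed, and all 86 were present and tested in both tables. They comprised 31 core proteins of the small (40S) subunit, 43 core proteins of the large (60S) subunit and 3 proteins of the P stalk. The other 9 were 7 paralogs, which are second copies of a ribosomal protein gene, and 2 genes named alike, Rps19bp1 and Rpl7l1. The products of these 2 are not proteins of the mature ribosome.

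The cytoplasmic ribosome is built from ribosomal RNA and one copy of most of these proteins, so their messenger RNAs are usually made in similar proportions. The messages are short and very abundant, and most begin with a run of pyrimidines at the start site, the 5′ terminal oligopyrimidine (TOP) tract, through which mTOR signalling controls their translation. In mouse stem cells, DUX, a transcription factor with a pair of homeodomains, switches on genes of the 2-cell embryo.

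Every line was a Dux-/- mouse embryonic stem cell line kept in 2iLIF with a doxycycline-switched transgene for the red fluorescent protein mCherry, alone or fused to a DUX derivative, and every group, the mCherry-only control included, received 0.25 ug/mL doxycycline for 12 hours. FL carries full-length Dux, and the other groups are called by their labels, which do not explain C1 to C5, 14, delt, or the letters of C1C3a, C1C3b and C1C3c. Each group had 2 replicates, and nothing in the labels says whether these were separate cultures, so p-values measure the spread between these libraries only. The authors' values came in a chimera table (mCherry, C1+14, C3+14, FL, and the C1C3 constructs a, b and c) and a deletion table (FL, C12345delt14, deltC12345+14 and deltC12345delt14), which were scaled separately. The same FL libraries stand in both tables. C3delt14 was not analysed here.

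Libraries held from 21059953 to 40448890 reads. The endogenous gene Duxf3 had 0 reads in every library, including those with a DUX transgene, so it does not check the labels. All 10 pluripotency markers were at a value of at least 10 in every library. On the deposited scale 7 of them were called lower and 3 higher in FL against mCherry (median log2 fold change -1.41), and 6 lower and 1 higher in C3+14 (median -1.06). In C3+14 against mCherry 4 of 7 fibroblast markers tested and 4 of 8 primitive endoderm markers were called higher, and 1 of each list lower. Of 7 trophectoderm markers tested 3 were called higher and 2 lower there. For FL against mCherry the counts of these lists were 1 and 0, 1 and 2, and 1 and 3. Of all genes tested 37.3% were called higher and 25.7% lower in C3+14, and 33.2% and 27.4% in FL. The part of other cell types in the results was not tested. The summed value of 9 markers of the 2-cell state ranged from 1.32 to 4.29 in mCherry and from 6.82 to 21.2 in C1+14. It was 1432 to 1618 in C1C3c, 22516 to 32688 for C1C3b, 561823 to 827209 for C1C3a, 1277539 to 1402967 for C3+14 and 1272882 to 2329731 for FL. In the deletion table it was 604871 to 956584 in C12345delt14 and at most 4.10 in the groups whose names begin with deltC12345. Summed values of 8 fibroblast markers, for feeder cells, stayed between 44.5 and 315 in all libraries. Libraries also fell into 2 types by the share of reads in 1648 genes whose sequence is repeated in at least 20 genes. That share was 0.298% to 0.424% in both C3+14 libraries, both mCherry libraries, deltC12345+14 replicate 2 and deltC12345delt14 replicate 1, and 1.67% to 2.59% in the others. Library type and construct cannot be told apart when FL or C1+14 is set against mCherry. C3+14 against mCherry, and every comparison with C1+14 as control, stay within 1 type.

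The start sites of 10 genes, 6 by their role and 2 paralogs with their parents, are shown because the TOP tract lies there. Each line runs from 15 bases before to 15 bases from the RefSeq start (GRCm38.p6) on the sense strand, and capitals mark the longest run of C or T in the window.
Rps6: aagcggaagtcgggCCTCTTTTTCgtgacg
Rplp0: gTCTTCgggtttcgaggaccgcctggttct
Rplp2: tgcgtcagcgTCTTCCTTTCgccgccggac
Rpsa: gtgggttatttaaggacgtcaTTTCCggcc
Rpl5: TCTCacgtcgcttgcgtgctggtggtgcta
Rpl11: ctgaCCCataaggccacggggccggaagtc
Rpl39: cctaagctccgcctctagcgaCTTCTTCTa
Rpl39l: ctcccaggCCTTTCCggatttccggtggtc
Rpl10: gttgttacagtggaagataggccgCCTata
Rpl10l: tttggCCTCCattttgcggctggcggtggg
The longest run was 10 bases in Rps6, at chr4:86857353-86857382 on the minus strand, and in Rplp2, at chr7:141447636-141447665 on the plus strand. It was 3 bases in Rpl11 and in Rpl10, so the RefSeq start of a ribosomal protein gene need not sit in such a tract. RefSeq windows were matched for 66 of the 86 genes.

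Between 20 bases before and 30 bases after the start, a run of at least 8 pyrimidines was found in 34 of the 66 genes (51.5%) and in 21.5% of 27025 genes with a window. With at least 6 bases the shares were 74.2% and 46.8%, and with at least 10 bases they were 37.9% and 10.1%. Of the 57 core and stalk genes with a window 32 (56.1%) had a run of at least 8, against 2 of the 9 other genes, Rpl22l1 and Rps27l. These lengths were chosen after start sites of these genes had been read. In the whole window of 250 bases before and 50 after the start, on both strands, the ETS factor core CCGGAAG was in 26 of the 66 genes (39.4%) and in 9.93% of all genes. The pyrimidine elements CTTTCC and CTCTTT, which can lie within the runs counted above, were in 54.5% and 42.4% of the genes and in 29.3% and 25.6% of all. TATAAA was in 7 of the 66 (10.6%) against 15.7%. The DUX-type double homeodomain motif was in 0 of the 66 windows and in 11 of 27025 (0.0407%), which says only that these letters are not in these windows.

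Ribosomal protein messages took 7.88% and 7.63% of all reads in the mCherry libraries. Both C3+14 libraries lay above these, at 11.6% and 10.5%. C1C3b, at 9.78% and 9.49%, and C1C3a, at 9.02% and 8.79%, also lay above them without overlap. FL, at 6.90% and 8.39%, and C1+14, at 6.78% and 7.75%, overlapped mCherry, and C1C3c, at 7.40% and 7.18%, lay just below it. In the deletion table C12345delt14 took 9.10% and 8.12%, deltC12345+14 took 8.05% and 7.61%, and deltC12345delt14 took 7.91% and 8.11%. The highest group mean was 11.1% ± 0.822 (SD, n = 2), in C3+14, and with 2 libraries a group such shares were compared by overlap only, since an exact permutation test could not pass 0.05.

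The share of reads is a different quantity from the deposited value, which is not scaled to a library's total reads. Genes called at least 2-fold higher in FL than in mCherry, 5248 without the ribosomal protein genes, held 53.9% and 45.2% of reads in FL, 43.1% and 45.8% in C1C3a, 33.9% and 34.6% in C3+14, and 9.73% and 10.01% in mCherry. Of the remaining reads, ribosomal protein genes took 8.73% and 8.48% in mCherry, 7.83% and 9.03% in C1+14, 8.69% and 8.36% for C1C3c, 12.2% and 11.9% for C1C3b, 15.8% and 16.2% for C1C3a, 17.59% and 16% for C3+14, and 14.98% and 15.3% for FL. The genes taken out were chosen for being higher in FL, and the ribosomal protein genes that passed the same filter were kept, so these shares are raised by construction where such genes took many reads. They are a description of where the reads went, not a comparison of groups. In bulk samples, more cells of one kind and more RNA per cell cannot be told apart.

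**Figure D1:**
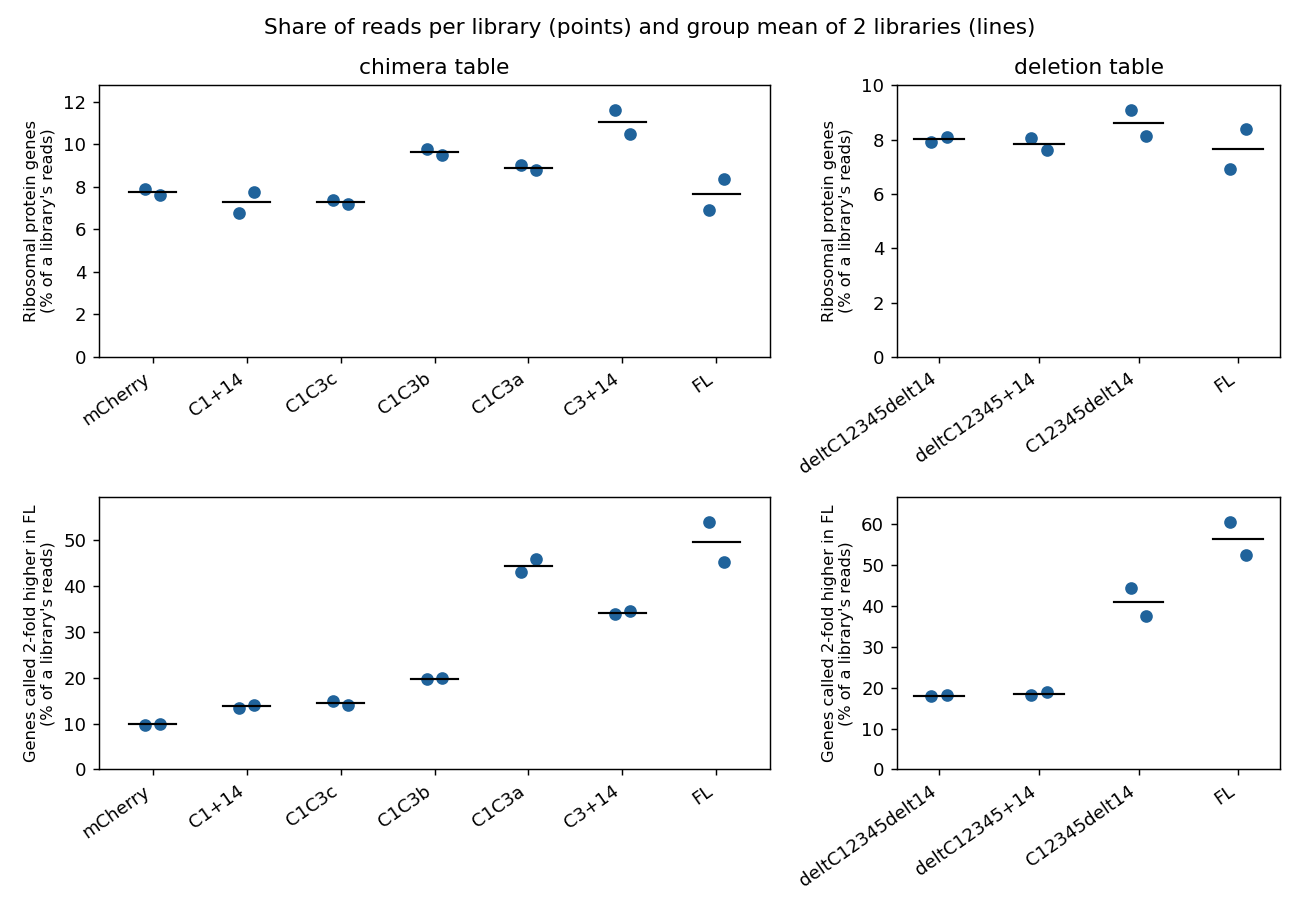
Share of each library's reads (vertical axis, percent) in the ribosomal protein genes (top) and in the other genes called at least 2-fold higher in FL (bottom), by group, for the chimera table (left) and the deletion table (right), with points for libraries and lines for the mean of 2. C3+14 is highest in the top left panel, at 11.6% and 10.5%, while FL at 6.90% and 8.39% overlaps mCherry. In the bottom left panel FL, at 53.9% and 45.2%, overlaps C1C3a, at 43.1% and 45.8%. The genes of the bottom panels were chosen for being higher in FL, so that FL lies above mCherry there was fixed by the choice.

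Deposited values are reads divided by 1 size factor per library, so that the typical gene is level between libraries. On that scale Rps6, a 40S protein and a target of S6 kinase, had values of 37370 and 35946 in mCherry, 24496 and 28775 in C1+14, 28388 and 26063 in C1C3c, 45738 and 42339 in C1C3b, 63634 and 67399 in C1C3a, 54383 and 62325 in FL, and 94036 and 86835 in C3+14. C3+14 was highest, C1C3a and FL followed, and C1C3c overlapped C1+14 at the bottom. The median over the 86 genes of the log2 difference from mCherry gave the order C3+14 at 1.29 ± 0.10 (SD, n = 2), C1C3a at 1.06 ± 0.12, FL at 1.00 ± 0.06, C1C3b at 0.34 ± 0.05, C1C3c at -0.33 ± 0.08 and C1+14 at -0.35 ± 0.15. C1C3a and FL did not differ beyond their spread, nor did C1C3c and C1+14. As shares of all reads, the same medians were 0.50 ± 0.11 for C3+14, 0.25 ± 0.04 for C1C3b, 0.15 ± 0.03 for C1C3a, -0.03 ± 0.19 for FL, -0.13 ± 0.04 for C1C3c and -0.13 ± 0.14 for C1+14.

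In C3+14 against mCherry, 79 of the 86 genes rose and 2 fell on the deposited scale (limma, adjusted p under 0.05), where 37.3% of all genes tested were called higher and 25.7% lower. Past 2-fold there were 70 higher and 1 lower, against 29.6% and 17.7% of all genes. Their median log2 fold change was 1.30, and that of all genes tested was 0.23. Scaled to total reads, the medians were 0.51 and -0.52, with 62 genes higher and 6 lower. With quantile normalization they were 0.093 and -0.25, with 24 genes higher and 9 lower. The share of all genes called was counted on the deposited scale only, here and in the other comparisons. Rps20, a 40S protein, had values of 19260 and 18078 in mCherry and 67710 and 62019 in C3+14, a log2 fold change of 1.80 (SE 0.12, adjusted p 3.98e-08). Rps27a, made as a fusion with ubiquitin, went from 23582 and 20450 to 71913 and 68252 (log2 fold change 1.67, SE 0.12, adjusted p 6.27e-08). Both genes stayed called higher under each of the 25 settings run. Here and below, the settings include fits that leave out a library of a group not compared, and a setting that repeats the main fit. Those could hardly change a call, so the number of settings overstates how far a call was tried. Rpl3l, the muscle-type copy of Rpl3, had the largest log2 fold change, 2.27 (SE 0.65, adjusted p 0.00798), but on values of only 6.60 and 12.9 against 60.3 and 38.9, and its largest adjusted p over the settings was 0.108.

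FL against mCherry had 78 genes higher and 3 lower on the deposited scale, against 33.2% and 27.4% of all genes tested, whereas scaling to total reads left 5 higher and 17 lower and turned the median from 0.99 to -0.040. Past 2-fold there were 42 higher and 1 lower on the deposited scale, against 24.5% and 19.6% of all genes. The all-gene median moved with the scaling, from 0.09 to -0.87. Measured from that median, the ribosomal protein genes stood 0.90 higher on the deposited scale and 0.83 higher with total reads, but a single factor per library moves all genes alike, so these distances must nearly agree. Quantile normalization, which can change the distance, left 0.019, with a median of -0.25 beside -0.27 for all genes, 9 genes called higher and 42 lower. Rpl13, a 60S protein, had values of 22969 and 22644 in mCherry and 72984 and 62910 in FL (log2 fold change 1.57, SE 0.12, adjusted p 2.04e-07). Rpl36, also of the 60S subunit, went from 7233 and 7203 to 20651 and 21985 (log2 fold change 1.56, SE 0.12, adjusted p 1.95e-07). Both stayed called higher under each setting run, with log2 fold changes of at least 0.27 and 0.53.

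C1+14 against mCherry went the other way: 44 genes fell and 1 rose, against 14.5% and 16.9% of all genes tested, and the median was -0.35 beside 0.00 for all genes. Most of these differences were small, with 2 genes lower and 0 higher past 2-fold, against 5.95% and 12.4% of all genes. The count varied with the fit: 10 genes were called with only the 2 groups in the fit, 11 without mCherry replicate 1, 17 without C1+14 replicate 1 and 23 without mCherry replicate 2, against 54 without C1+14 replicate 2. Each fit with a library left out has 1 library in that group, which is assumed to vary like the others. Scaled to total reads, 10 were lower and 3 higher. The 3 comparisons with mCherry share its 2 libraries.

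Against C1+14, a control of the same library type, the series of chimeras gave 80 genes higher in FL (31% of all genes tested), 83 in C1C3a (32.5%), 79 in C1C3b (26.4%) and 0 in C1C3c (8.57%), with 0 lower in each, where 26%, 24.8%, 18.6% and 5.77% of all genes were called lower. The medians were 1.35, 1.42, 0.72 and 0.04, beside 0.06, 0.13, 0.15 and 0.00 for all genes. Scaled to total reads, the counts higher and lower were 6 and 6 in FL, 45 and 3 in C1C3a, and 65 and 1 in C1C3b, with all-gene medians of -1.11, -0.94 and -0.10. With quantile normalization they were 13 and 14 in FL, 18 and 12 in C1C3a, and 56 and 0 in C1C3b, with medians of the 86 genes 0.23, 0.30 and 0.40 above those of all genes. Past 2-fold on the deposited scale there were 77 higher in FL (21.5%), 76 in C1C3a (23.4%), 1 in C1C3b (17.9%) and 0 in C1C3c (5.37%), and 0 lower in each (18.4%, 17.3%, 11% and 2.46%). For C1C3c, limma called 0 genes with 5 at an unadjusted p under 0.05, and DESeq2 called 1. These 4 comparisons share the C1+14 libraries.

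Rplp0, the protein that anchors the P stalk on the 60S subunit, showed the series on the deposited scale. Its values were 25329 and 31346 in C1+14, 28502 and 27021 in C1C3c, 50415 and 52559 in C1C3b, 80806 and 79288 in FL, and 95202 and 111434 in C1C3a. C1C3c overlapped C1+14, and the other groups lay above both in that order without overlap. The order depends on the scaling: with total reads the log2 fold changes against C1+14 were 0.25 in FL, 0.55 in C1C3b and 0.73 in C1C3a. For C1C3a the log2 fold change was 1.87 with SE 0.12 (limma, adjusted p 4.07e-08, deposited values), and over the 25 settings the lowest was 0.0059 and the largest adjusted p 0.971.

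Other genes with large differences from C1+14 were core proteins of both subunits. Rps16, a 40S protein, had values of 13962 and 17170 in C1+14 and 50381 and 46107 in FL (log2 fold change 1.64, SE 0.15, adjusted p 9.07e-07), and the largest adjusted p over the settings was 0.222. The groups did not overlap on the deposited scale, while the call depends on the setting. In C1C3b the gene with the largest difference was Rps20, at 41244 and 40438 against 18022 and 19066 in C1+14 (log2 fold change 1.14, SE 0.12, adjusted p 1.01e-05), followed by Rps12 and Rpl36a at 0.95 and 0.94. All 3 stayed called higher under each of the 25 settings.

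The stalk proteins Rplp1 and Rplp2, which recruit translation factors to the ribosome, followed Rplp0 on the deposited scale. Rplp1 had values of 22184 and 26770 in C1+14, 44118 and 42407 in C1C3b, and 76651 and 84672 in C1C3a. Rplp2 had 11499 and 13469 in C1+14, 20222 and 21203 in C1C3b, and 30829 and 34728 in C1C3a. Neither gene's groups overlapped, and in C1C3c both overlapped C1+14. With total reads the log2 fold changes in C1C3b and C1C3a against C1+14 were 0.51 and 0.59 for Rplp1, and 0.42 and 0.26 for Rplp2.

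In all, 77 of the 86 genes were called higher in each of the 5 comparisons of C3+14 and FL with mCherry and of FL, C1C3a and C1C3b with C1+14 on the deposited scale, where calls for FL depend on the scaling as given above. The share of all genes called higher in all 5 was not counted. It cannot exceed the lowest share in a single comparison, 26.4% in C1C3b against C1+14. The 9 others were Rpl10l, Rpl13a, Rpl24, Rpl36al, Rpl39l, Rpl3l, Rpl7l1, Rps10 and Rps19bp1. By the F test over all groups of the chimera table, 84 of 86 genes differed, beside 89.9% of all genes tested, so that count is near the background.

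**Figure D2:**
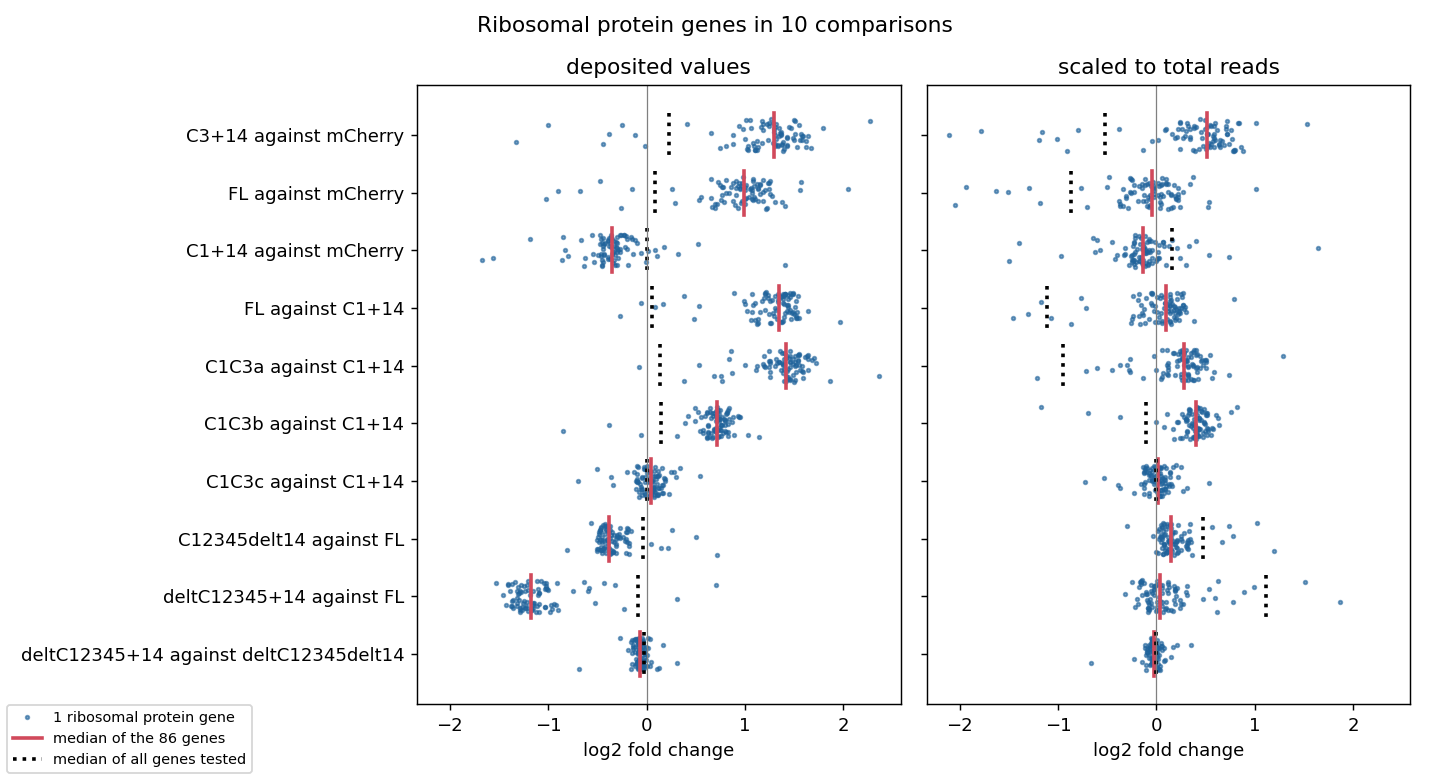
Log2 fold change (horizontal axis) of each ribosomal protein gene (points) in 10 comparisons (rows), on deposited values (left) and scaled to total reads (right), with the median of the 86 genes as a solid line and that of all genes tested as a dotted line. In FL against mCherry the solid line moves from 0.99 to -0.040 and the dotted line from 0.09 to -0.87, a shift that 1 factor per library gives to all genes alike. Quantile normalization, not drawn, brings these lines to within 0.019 of each other.

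In the deletion table, 79 genes were lower in deltC12345+14 than in FL on the deposited scale and 0 higher, against 29.2% and 24.1% of all genes tested, whereas with total reads 7 were higher and 0 lower. The median was -1.17 beside -0.08 for all genes, and 0.040 beside 1.11 with total reads. Rps13, a 40S protein, went from 33399 and 30213 to 11701 and 11916 (log2 fold change -1.43, SE 0.16, adjusted p 0.000430). It kept a negative log2 fold change under each of 21 settings, with a largest adjusted p of 0.170. Past 2-fold 69 genes were lower and 0 higher, against 20% and 18.4% of all genes. With the libraries of high repeat share alone, 76 genes were called lower, but deltC12345+14 then has 1 library, which is assumed to vary like the groups that keep 2.

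For C12345delt14 the direction against FL depended on the scaling. Its median was -0.38 on the deposited scale and 0.15 with total reads, with 0 genes called by limma in either direction, 31 at an unadjusted p under 0.05 and 1 called by DESeq2, and of all genes tested 0.363% were called higher and 0.645% lower. Past 2-fold these were 0.338% and 0.62%, with 0 of the 86 genes. Its replicates stood apart: measured from FL, their medians were -0.15 and -0.60. Rps6 had values of 66887 and 77959 in FL, 72580 and 56095 in C12345delt14, 38774 and 34621 in deltC12345+14, and 37624 and 39910 in deltC12345delt14. Between the groups whose names begin with deltC12345 no difference was detected: limma called 0 of the 86 genes and 0% of all genes tested, with 0 of the 86 at an unadjusted p under 0.05, and the median was -0.07. Under the F test 80 of 86 genes differed among the 4 groups, beside 49.6% of all genes tested.

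**Figure D3:**
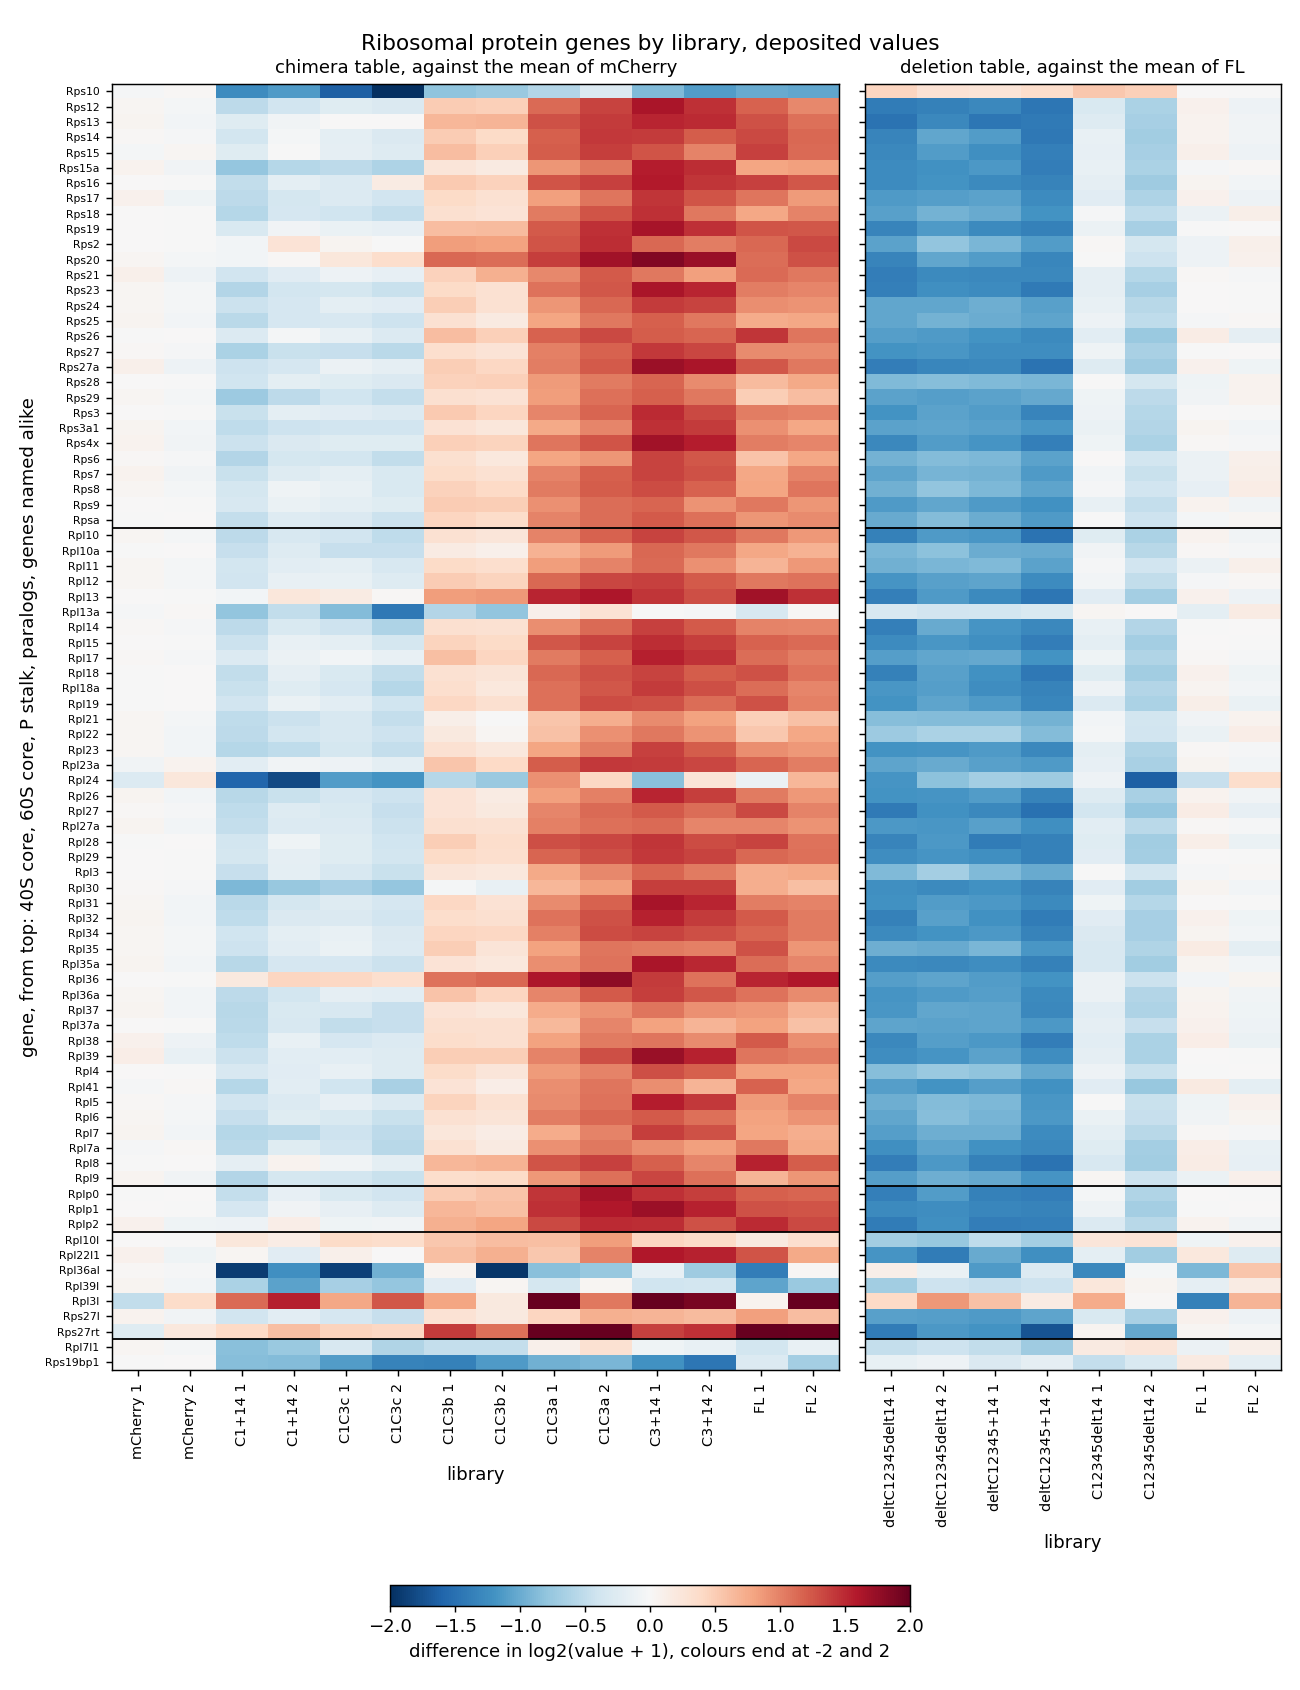
Difference in log2(value + 1) of each gene shown (rows, grouped by role) in each library (columns) from the mean of mCherry (chimera table, left) or FL (deletion table, right), on deposited values, with colours ending at -2 and 2. Most rows share 1 pattern, in which the difference between FL and mCherry is mostly lost with total-read scaling. Rps10, Rpl13a, Rpl24, Rpl36al, Rps19bp1 and Rpl39l stand out from this pattern.

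The subunits moved alike. In C3+14 against mCherry the median log2 fold change was 1.34 for the 40S core, 1.28 for the 60S core and 1.42 for the stalk, and in C1C3a against C1+14 it was 1.45, 1.44 and 1.72. In deltC12345+14 against FL the medians were -1.21, -1.17 and -1.37. Rpsa, a 40S protein that also serves as a laminin receptor, had values of 54801 and 55328 in mCherry, 101871 and 105635 in FL and 129331 and 118504 in C3+14. Rpl5 and Rpl11, which with 5S RNA can bind Mdm2 and stabilise p53, had log2 fold changes in C3+14 against mCherry of 1.49 (SE 0.12) and 1.03 (SE 0.12). Rplp1 had the highest mean value per kilobase of exon of the 86 genes, 101455 in the chimera table, and the 10 genes with most reads took 26.01% of the reads of all 86.

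Leaving aside the paralogs, the genes named alike and the core genes that overlap another gene on the same strand by at least 20% of their exons, 74 genes remained. All 74 lay above mCherry in both C3+14 libraries, and the quartiles of their log2 fold changes were 1.13 and 1.43. How many of all genes lay above mCherry in this way was not counted, and 37.3% of those tested were called higher. For C1C3c against C1+14 the same quartiles were -0.03 and 0.10, and for deltC12345+14 against FL they were -1.30 and -1.09. As a description across genes, Spearman's rho between log2 fold change and transcript GC content ran from -0.57 in C1C3c against C1+14 to 0.28 in C1+14 against mCherry over the 10 comparisons. It was -0.42 in C3+14 and 0.26 in FL against mCherry, 0.0021 in FL, -0.18 in C1C3a and -0.29 in C1C3b against C1+14, -0.072 in C12345delt14 and -0.058 in deltC12345+14 against FL, and -0.30 in deltC12345+14 against deltC12345delt14. The GC content ran from 39.1% to 62.4%. The part of base composition in these differences was not tested.

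Counting bears on the exceptions. Of the 86 genes, 4 overlap another annotated gene on the same strand, by 35.4% of exon length in Rpl13a, 47.0% in Rpl24, 24.5% in Rpl36al and 20.6% in Rps10. Rpl24 had 10 to 53 reads per chimera library, Rpl36al 6 to 38 and Rps10 64 to 336, while each overlapping gene had 0 reads. How the authors treated reads that fit several genes is not given in the sources used here, so values of these 4 genes are uncertain. Rps10 had values of 222 and 230 in mCherry, 112 and 110 in FL and 122 and 104 in C3+14, which gave log2 fold changes of -1.02 (SE 0.24, adjusted p 0.00223) and -0.997 (SE 0.24, adjusted p 0.00250), both negative and called under each setting run. It also fell in C1+14 against mCherry (log2 fold change -1.19, SE 0.24, limma adjusted p 0.00235), likewise under each setting. The fall from mCherry was thus not particular to FL and C3+14.

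Similar copies elsewhere in the genome bear on the rest. A median of 31.3% of the 50-base stretches of a ribosomal protein gene also occurred in another gene's transcripts, and 17 genes had under 10%. Those 17 gave medians close to the whole set, 1.32 in C3+14 against mCherry and -1.21 in deltC12345+14 against FL, with 14 genes higher in the first on the deposited scale and 14 lower in the second. Of 294 annotated ribosomal protein pseudogenes, 180 were tested in the chimera table, and 173 were called higher in FL than in mCherry, beside 33.2% of all genes tested, with a median log2 fold change of 2.67. That comparison crosses library types, as does C1+14 against mCherry, with a median of 1.00. Within 1 type, 166 were called higher in FL against C1+14, with a median of 1.501, and 157 in C3+14 against mCherry, with a median of 1.57, beside 31% and 37.3% of all genes. Pseudogenes also differed by library type within a construct: type A exceeded type B by a median of 0.47 in deltC12345+14 and 0.40 in deltC12345delt14, where the ribosomal protein genes differed by 0.15 and 0.09.

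Rps27rt, a retrotransposed copy of Rps27 at chr9:114982366-114982739 with 90.9% of its 50-base stretches shared, had the largest log2 fold change in FL against mCherry, 2.05 (SE 0.17, adjusted p 2.70e-07), with values of 239 and 327 in mCherry and 1202 and 1115 in FL. Its ratio to Rps27, which no scaling of a library can change, was 2.55% and 3.61% in mCherry, 2.999% and 3.37% in C3+14, and between 5.47% and 6.75% in every other chimera library. The low ratios are those of the libraries with the low repeat share in that table. Within deltC12345+14 the ratio was 6.75% in the high-share library and 4.64% in the low-share one, and within deltC12345delt14 it was 6.62% and 5.63%, while both C12345delt14 libraries, of the high type, had 7.18% and 5.06%. The part of library type in the ratio was not tested.

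Rpl39l, the paralog of Rpl39 best known from male germ cells, had no shared stretch and departed from its parent. Its values were 2059 and 1898 in mCherry, 947 and 1177 in FL, and 1501 and 1542 in C3+14, while Rpl39 had 6528 and 5319, 12506 and 12104, and 19680 and 17251. Rpl39l thus stood at 31.5% and 35.7% of Rpl39 in mCherry, 7.58% and 9.73% in FL, 7.63% and 8.94% for C3+14, 13.2% and 13.9% for C1C3a, 20.2% and 24.3% for C1C3b, 24.3% and 23.5% for C1C3c, and 29.04% and 18.4% in C1+14. FL, C3+14 and C1C3a lay below all other groups of the chimera table. Rpl39l fell in FL against mCherry (log2 fold change -0.90 with SE 0.17, limma adjusted p 0.000568), and was called lower under each of the 25 settings run. In the deletion table the ratio was 13.2% and 15.3% in deltC12345+14, 12.6% and 14.7% in deltC12345delt14, and 11.4% and 13.9% in C12345delt14. FL had the same 7.58% and 9.73% there. C1C3a overlapped each of these groups but FL.

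Rpl10l, an intronless copy of the X-linked Rpl10 that is needed in male meiosis, is compared with its parent by their ratio, which a factor per library leaves as it is. The ratio was 12.3% and 12.8% in mCherry, 21.1% and 17.4% in C1+14, 21.2% and 22.7% in C1C3c, and 6.62% and 6.90% in C3+14. C1+14, C1C3c and C1C3b lay above mCherry, and C3+14, FL and C1C3a lay below it. Rps27l, a p53-inducible copy of Rps27, stood at 50.4% and 47.5% of Rps27 in mCherry and 29.4% and 30.2% in C3+14. Rpl22l1, which can replace Rpl22, stood at 10.6% and 9.97% of its parent in mCherry and 14.98% and 16.1% in C3+14, and its FL replicates disagreed at 16.9% and 10.1%. Rps19bp1, which encodes a binding partner of Rps19, had values of 867 and 867 in mCherry, 715 and 543 in FL and 374 and 319 in C3+14. It fell in C3+14 against mCherry, with a log2 fold change of -1.33 (SE 0.17, adjusted p 1.44e-05), and was called lower under each setting run.

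**Figure D4:**
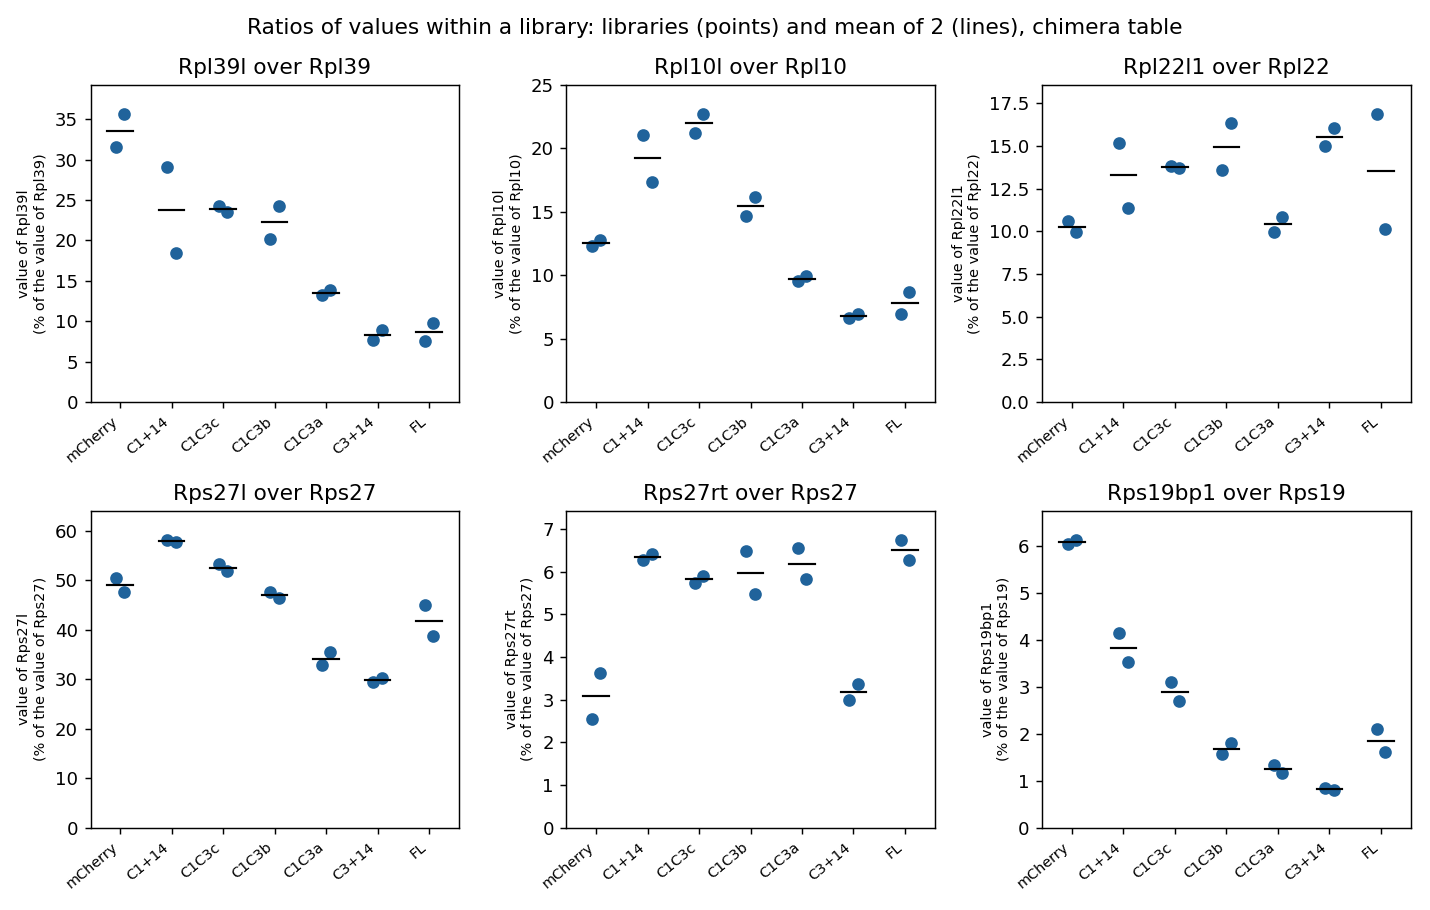
Value of 6 genes as a percent of a related gene's value in the same library (vertical axes) by group of the chimera table, with points for libraries and lines for the mean of 2. Rpl39l falls from 31.5% and 35.7% of Rpl39 in mCherry to 7.58% and 9.73% in FL, a ratio that no scaling of a library can change.

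Other genes of the translation machinery did not all go with the ribosomal proteins. Of 17 translation factors and other TOP messages, 13 rose and 3 fell in C3+14 against mCherry on the deposited scale, and 14 were higher in FL than in C1+14. Tpt1, a growth-related TOP message, had values of 31335 and 29433 in mCherry and 107213 and 98370 in C3+14. Gas5, a noncoding TOP host of small nucleolar RNAs, fell in FL against mCherry on that scale, from 3563 and 3563 to 778 and 1492. Of 38 ribosome biogenesis genes, 5 were higher and 13 lower in C3+14 against mCherry, 11 and 6 in FL, and 0 and 32 in C1+14 on the same scale. Of all genes tested 37.3% and 25.7%, 33.2% and 27.4%, and 16.9% and 14.5% were called higher and lower in these comparisons. Against C1+14, 29 of the 38 were higher and 2 lower in FL, 27 and 0 in C1C3a, and 6 and 13 in C1C3b. For all genes tested these shares were 31% and 26%, 32.5% and 24.8%, and 26.4% and 18.6%. In deltC12345+14 against FL 2 of the 38 were higher and 27 lower, beside 24.1% and 29.2% of all genes tested. Tsr1, a 40S assembly factor, had a log2 fold change of -1.48 (SE 0.13, adjusted p 6.65e-07) in C3+14 against mCherry, beside 1.30 for the median ribosomal protein gene. Ncl, the nucleolar protein nucleolin, had values of 63306 and 62239 in mCherry and 31802 and 18654 in C1+14.

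Of 77 mitochondrial ribosomal protein genes tested, 27 were higher and 17 lower in C3+14 against mCherry on the deposited scale, beside 37.3% and 25.7% of all genes tested, with a median of 0.19, and 58 were higher and 0 lower in FL against C1+14, beside 31% and 26% of all genes, with a median of 0.79. Of 6 ribosomal protein chaperones, 2 were higher and 3 lower in C3+14 against mCherry. Of 14 regulators of mTOR and of TOP messages, 2 were higher and 7 lower there, beside the same 37.3% and 25.7% of all genes. Mycn, a transcription factor that promotes ribosome production, had values of 2158 and 2290 in mCherry, 109 and 201 in FL and 457 and 481 in C3+14. These groups did not overlap, and of them FL was lowest. Mycn was also called lower in C1+14 against mCherry (log2 fold change -1.55, limma adjusted p 0.000450). Against C1+14 it was called lower in C1C3c (-1.09, limma adjusted p 0.0104) and in C1C3b (-1.35, limma adjusted p 0.000595). Fau and Rack1, ribosomal proteins whose names fall outside the rule, had log2 fold changes of 1.16 (SE 0.12) and 1.31 (SE 0.11) in FL against mCherry on the deposited scale.

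**Figure D5:**
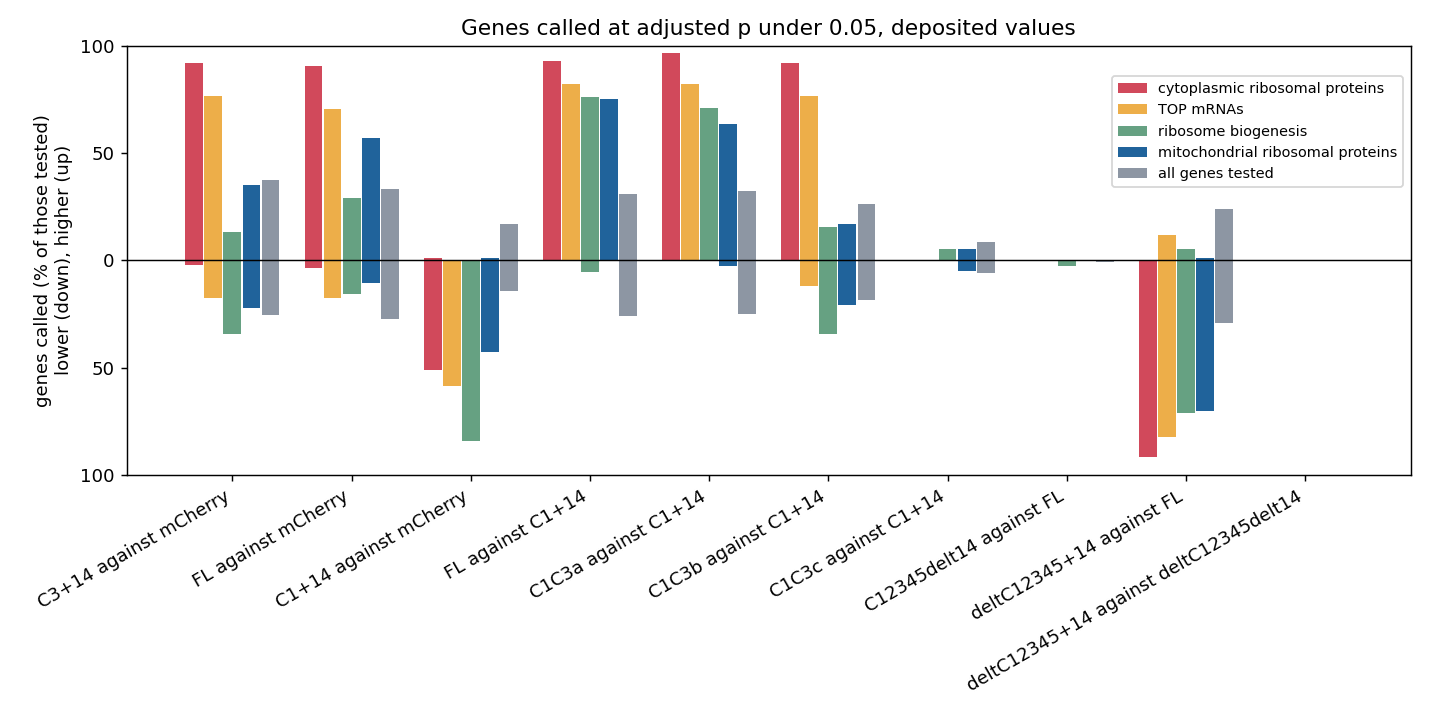
Percent of genes tested that were called higher (up) or lower (down) at adjusted p under 0.05 on deposited values (vertical axis) in 10 comparisons, for the ribosomal proteins, 3 related lists and all genes tested. In C3+14 against mCherry 79 of 86 ribosomal protein genes but 5 of 38 biogenesis genes are called higher. In FL against C1+14 these counts are 80 and 29. Most ribosomal protein calls for FL are lost with total-read scaling.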

How the data were processed

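RNA-seq values were read from 2 tables. The authors deposited a signal under the name of normalized counts; the headers give only library names, and the values themselves show each library's reads scaled by a single size factor. The submitters' processing notes name Trim Galore 0.5.0, FastQC, DESeq2 and mm10, and the aligner and counter are not given in the sources used here. All values above 0 (100%) were whole multiples of 1 read's value, to a tolerance of 0.001. limma 3.58.1 (R 4.3.3) was fitted to log2(value + 1) for genes at 10 or more in at least 2 libraries, with Benjamini-Hochberg adjustment over all of them; called means adjusted p under 0.05. edgeR 4.0.16 and DESeq2 1.42.0 on recovered reads, other scalings, filters and left-out replicates were alternatives. On simulated data for FL against mCherry (16640 genes, 200 changed), limma recovered 78% of 2-fold and 100% of 4-fold changes, and 5.32% of its calls were false. The simulated libraries were scaled by their known size factors and had the same dispersion for all genes, with as many rises as falls. Errors of scaling could not appear there, so these rates need not hold for the real comparisons. An initial requirement that over 80% of 2-fold changes be recovered was not met and was replaced by limits on bias, false calls and 4-fold recovery. Reads lack molecular identifiers, so depth covers counting error only.

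The genes and lists were chosen with earlier results of these data known. Named genes are, per comparison, up to 3 called risers and 3 called fallers whose libraries do not overlap, the stalk, Rpsa, Rpl5, Rpl11, Rps6, paralogs with their parents, and the 2 largest changes per related list. The library types, the overlap limit of 20%, the promoter motifs and run lengths, and the choice among start sites to print were set after seeing the data, and only Rpl39, Rpl10 and their copies were printed of the paralog pairs. Some of the genes that this rule lists are not reported here by name, though they stand in every count and median.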

Additional observations from a re-analysis of the deposited data

How the results depend on the processing

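The median changed sign with scaling in FL against mCherry, FL against C1+14, and both C12345delt14 and deltC12345+14 against FL, and kept its sign in C3+14 against mCherry and in C1C3a and C1C3b against C1+14 under every scaling run. Scaled to total reads, the median log2 fold change was 0.51 in C3+14 against mCherry, -0.040 in FL against mCherry (22 genes called), -0.13 in C1+14 against mCherry (13 called), 0.10 in FL against C1+14 (12 called), 0.29 in C1C3a (48 called) and 0.40 in C1C3b against C1+14, 0.15 in C12345delt14 and 0.040 in deltC12345+14 against FL (7 called). With quantile normalization these were 0.093 (33 called), -0.25 (51), -0.17 (29), -0.022 (27), 0.031 (30), 0.31, 0.034 and 0.10 (17), and 2 genes were called in C1C3c against C1+14. With total reads outside the genes higher in FL, a scaling added after seeing the data that keeps the ribosomal protein genes whatever their change, they were 1.04, 0.86, -0.065 (17 called), 0.94, 0.99, 0.54 for C1C3b, and -0.99 for deltC12345+14. TMM gave 1.12 in C3+14 and 0.91 in FL against mCherry and -1.01 in deltC12345+14 against FL. edgeR gave 0.83 in FL against mCherry, 1.11 in FL and 1.21 in C1C3a against C1+14, -1.05 in deltC12345+14 against FL, and 29 calls in C1+14 against mCherry, where the fit of 2 groups gave 10. DESeq2 called 1 gene in C1C3c against C1+14 and 1 in C12345delt14 against FL. The cause of these changes was not tested.

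Without 1 replicate, calls ran from 11 to 54 in C1+14 against mCherry and from 0 to 3 in C1C3c against C1+14. The median ran from -0.074 to 0.13 in C1C3c against C1+14, turning without C1+14 replicate 1, and from -0.13 to 0.0089 in deltC12345+14 against deltC12345delt14, turning without deltC12345+14 replicate 2. Replicate numbers did not pair the samples, with correlations of replicate differences from -0.57 to 0.14 over 27 pairs of groups. The replicate block gave 81 calls in C3+14 against mCherry, 80 in FL and 39 in C1+14 against mCherry, and left the other 7 counts as they were. A crossed pairing of deltC12345+14 with deltC12345delt14, added after seeing the data, called 0 genes. With library type as a covariate 79 genes were called in deltC12345+14 against FL. Low depth limits Rpl24, Rpl36al and Rpl3l, and 2 replicates limit every count.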
